A study of Mus musculus with 8 samples.

Results

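A list of 8 genes of the necroptosis and death receptor pathway, found by symbol, was examined among 55487 genes measured in colon epithelium: the ligand gene Tnfsf10, the receptor genes Tnfrsf1a and Fas, the adaptor gene Fadd, and Ripk1, Casp8, Ripk3 and Mlkl. All 8 members were present, and each was above 1 TPM (a transcript level corrected for gene length and scaled to a common sum) in every library, so all 8 were tested. The libraries came from intestinal epithelial cells of mouse colon, 4 of wild type genotype (WT) and 4 of genotype PIM1+/-, all of strain C57BL/6J. Pim1 encodes a serine/threonine kinase and the notation denotes a heterozygote. The structure of the altered allele, the age and the sex of the mice, and whether each library came from its own animal are not stated in the sources used here. The p-values therefore describe the spread among these libraries, which may be technical.

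Death receptors of the tumour necrosis factor (TNF) receptor family recruit FADD and caspase-8 after ligand binding, which starts apoptosis, or assemble a ubiquitin-dependent complex around RIPK1 that keeps cells alive and induces inflammatory genes. Where caspase-8 does not act, RIPK1 or the nucleic acid sensor ZBP1 engages RIPK3 through a shared motif, the RHIM, and RIPK3 phosphorylates MLKL, which then permeabilises the plasma membrane: this lytic death is necroptosis. In the gut, loss of caspase-8 or FADD in epithelial cells is known to cause inflammation in which necroptosis takes part. Transcript levels, measured here, do not show whether any of these proteins was active.

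Of the 8 members, 4 were higher in PIM1+/- libraries and 0 were lower (limma on log2(TPM + 1), adjusted p under 0.05 over 12760 tested genes, 5 at an unadjusted p under 0.05). The genes that rose were Mlkl, the executioner of necroptosis (2.27-fold in mean TPM), Tnfsf10, which encodes the death ligand TRAIL (2.49-fold), Ripk3 (1.52-fold) and Casp8 (1.37-fold). Ripk1, Fadd, Fas and Tnfrsf1a did not pass the test. Among all tested genes 17.5% were called, 8.93% higher and 8.54% lower. An unadjusted p under 0.05 was reached by 4132 of the 12760 tested genes, the background for such counts here and below. The median log2 fold change was 0.31 over the members and -0.01 over all tested genes. In 5 of the 8 members the PIM1+/- libraries all lay above the WT libraries, against 11.9% of tested genes (23.5% did not overlap in either direction).

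The promoter windows of the 4 genes that rose are shown because all 4 were higher in PIM1+/- libraries, with that of Fas, which did not pass the test, beside them. Each is the 250 bases before a RefSeq start site (build GRCm38.p6), 5′ to 3′ along the gene: Tnfsf10 at chr3:27316827-27317076 (+ strand), Casp8 at chr1:58802252-58802501 (+), Mlkl at chr8:111338206-111338455 (-), Ripk3 at chr14:55788858-55789107 (-) and Fas at chr19:34290409-34290658 (+). RefSeq and GENCODE starts differ: the RefSeq start of Casp8 lies inside the GENCODE gene, and the Tnfsf10 window runs past the GENCODE start. Capitals mark matches to any motif searched.
Tnfsf10: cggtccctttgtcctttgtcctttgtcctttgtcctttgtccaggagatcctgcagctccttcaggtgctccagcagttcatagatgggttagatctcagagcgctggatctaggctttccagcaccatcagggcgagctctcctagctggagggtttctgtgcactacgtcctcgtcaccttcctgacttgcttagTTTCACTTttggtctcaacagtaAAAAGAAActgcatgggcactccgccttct
Casp8: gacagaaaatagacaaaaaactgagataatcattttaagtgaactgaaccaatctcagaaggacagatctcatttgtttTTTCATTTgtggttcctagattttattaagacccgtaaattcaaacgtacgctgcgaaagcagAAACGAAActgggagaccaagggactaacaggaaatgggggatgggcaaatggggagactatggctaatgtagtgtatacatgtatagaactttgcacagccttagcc
Mlkl: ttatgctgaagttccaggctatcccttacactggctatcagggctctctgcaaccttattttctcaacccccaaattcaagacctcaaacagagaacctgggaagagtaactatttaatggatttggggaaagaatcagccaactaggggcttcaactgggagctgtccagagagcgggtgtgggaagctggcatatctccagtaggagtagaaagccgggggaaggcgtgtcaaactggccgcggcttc
Ripk3: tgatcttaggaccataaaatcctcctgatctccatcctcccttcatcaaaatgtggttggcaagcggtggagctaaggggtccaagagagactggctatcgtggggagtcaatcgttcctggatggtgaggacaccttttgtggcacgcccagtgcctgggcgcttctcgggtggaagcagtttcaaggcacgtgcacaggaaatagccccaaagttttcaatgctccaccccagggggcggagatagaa
Fas: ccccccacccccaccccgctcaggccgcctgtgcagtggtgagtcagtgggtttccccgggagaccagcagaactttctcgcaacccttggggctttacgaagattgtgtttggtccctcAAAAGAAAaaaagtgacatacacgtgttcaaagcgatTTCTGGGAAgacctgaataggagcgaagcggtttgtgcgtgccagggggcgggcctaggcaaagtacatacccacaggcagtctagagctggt
The motifs were the core of the interferon-stimulated response element (ISRE), TTCNNNGAA (the site of STAT dimers), a form of the NF-kB site and AANNGAAA (the core bound by interferon regulatory factors), on both strands. The last was added after the sequences were seen, and its letters can overlap the first. Of 32851 promoter windows of that length in the RefSeq table, 2.98% held the ISRE core, 7.02% TTCNNNGAA, 1.21% the NF-kB form and 21.3% AANNGAAA. Tnfsf10 held AANNGAAA at -53 to -46 (as TTTCACTT, on the opposite strand) and at -30 to -23 (AAAAGAAA), counted from the start site. Casp8 held it at -171 to -164 (as TTTCATTT, opposite strand) and at -108 to -101 (AAACGAAA). Fas held it at -130 to -123 (AAAAGAAA) and TTCNNNGAA at -93 to -85 (TTCTGGGAA). The windows of the other members that did not pass, not printed here, held no AANNGAAA. Tnfrsf1a and Ripk1 (at start site 2 only) held TTCNNNGAA, and Fadd held no match. The windows of Mlkl and Ripk3 held no match to the 4 motifs, so the windows of genes that rose included some with and some without these letters.

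Tnfsf10 (ENSMUSG00000039304, chromosome 3, 27317028 to 27342427, GRCm38, 6 merged exons) stood at 3.68, 3.28, 3.39 and 3.37 TPM in WT, replicates 1 to 4 in that order as in all such series here, and at 9.25, 7.18, 7.78 and 9.91 TPM in PIM1+/- libraries. Every PIM1+/- library lay above every WT library, and the WT libraries were close together. The mean went from 3.43 ± 0.173 to 8.53 ± 1.27 TPM (SD, n = 4), a log2 fold change of 1.10 ± 0.11 (SE, 95% interval 0.85 to 1.34, limma adjusted p = 0.000312). This change stood at the 98.3 percentile of all tested genes. In bulk RNA, more cells of a type and more RNA per cell cannot be told apart, here and below.

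The receptors showed smaller differences. Tnfrsf1a, which encodes the main death receptor for TNF (ENSMUSG00000030341, chromosome 6, 125349362 to 125362484), measured 32.89, 33.48, 31.12 and 29.45 TPM in WT and 38.52, 34.87, 35.72 and 34.99 TPM in PIM1+/- libraries. The groups did not overlap, but the difference of 0.18 ± 0.06 (interval 0.04 to 0.32) missed the threshold (limma adjusted p = 0.0802). An exact two-sided permutation test of the ratio of means, not adjusted over genes, gave p = 0.0286, the smallest that 4 against 4 libraries can give. Any gene without overlap gets this value, as 23.5% of tested genes would. Fas, the receptor for FAS ligand (ENSMUSG00000024778, chromosome 19, 34290666 to 34327772), measured 4.71, 6.95, 6.78 and 8.51 TPM in WT and 6.34, 7.45, 7.74 and 8.05 TPM in PIM1+/- libraries. WT replicate 1 was the lowest library and WT replicate 4 the highest, so the PIM1+/- values lay inside the WT range. The log2 fold change was 0.14 ± 0.15 (interval -0.20 to 0.47, adjusted p = 0.574).

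The adaptor and the scaffold kinase were nearly level. Fadd, the adaptor that carries caspase-8 to the receptors (ENSMUSG00000031077, chromosome 7, 144577318 to 144582463), measured 6.84, 6.34, 6.64 and 6.06 TPM in WT and 6.86, 6.83, 6.57 and 7.39 TPM in PIM1+/- libraries. The ranges overlapped, with a log2 fold change of 0.08 ± 0.08 (interval -0.09 to 0.26, adjusted p = 0.502). Ripk1, the kinase and scaffold at the branch between survival and death (ENSMUSG00000021408, chromosome 13, 34002363 to 34037147), measured 18.85, 18.70, 20.36 and 19.47 TPM in WT and 19.59, 19.27, 18.42 and 19.63 TPM in PIM1+/- libraries. Its log2 fold change was -0.01 ± 0.06 (interval -0.14 to 0.12, adjusted p = 0.944), so a change beyond 0.14 in either direction lay outside the interval. Exons of Ripk1 share 241 bases with Serpinb6a on the opposite strand, a gene at up to 464 TPM, and 511 bases with the pseudogene Gm17084, and the strand setting of the counting is not stated, so reads of the 3 genes cannot be told apart there. Fadd shares 239 exon bases with the antisense gene Faddos, which was at most 0.35 TPM.

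Caspase-8, the protease that starts receptor-driven apoptosis and cleaves RIPK1 and RIPK3, was the most abundant transcript of the list. Casp8 (ENSMUSG00000026029, chromosome 1, 58795374 to 58847503) measured 49.5, 61.62, 56.29 and 52.22 TPM in WT and 91.03, 69.68, 69.76 and 70.46 TPM in PIM1+/- libraries. The groups did not overlap, and PIM1+/- replicate 1 stood above the other 3 PIM1+/- libraries, which were within 1 TPM of each other. The mean went from 54.9 ± 5.27 to 75.2 ± 10.5 TPM (log2 fold change 0.44 ± 0.10, interval 0.21 to 0.67, limma adjusted p = 0.018). Without PIM1+/- replicate 1 the change was 0.35 and was still called. The call was lost without WT replicate 1 (adjusted p = 0.0526), without WT replicate 4 (0.051), with no filter on low values (0.0519) and with a replicate block (0.0605).

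The necroptosis kinase and its substrate both rose. Ripk3 (ENSMUSG00000022221, chromosome 14, 55784995 to 55788865) measured 18.0, 24.18, 20.58 and 17.84 TPM in WT and 38.59, 30.5, 27.87 and 25.63 TPM in PIM1+/- libraries. The groups did not overlap, although WT replicate 2 came within 2 TPM of PIM1+/- replicate 4. Its mean went from 20.2 ± 2.97 to 30.6 ± 5.66 TPM (log2 fold change 0.58 ± 0.14, interval 0.27 to 0.88, limma adjusted p = 0.0202). As for Casp8, the call was lost without WT replicate 1 (adjusted p = 0.0578), without WT replicate 4 (0.0567) and with no filter (0.0591). Mlkl (ENSMUSG00000012519, chromosome 8, 111311797 to 111338177) measured 11.52, 17.73, 11.53 and 13.17 TPM in WT and 36.54, 28.08, 27.04 and 30.54 TPM in PIM1+/- libraries. The groups were well apart, with WT replicate 2 the highest WT library. The mean went from 13.5 ± 2.93 to 30.6 ± 4.25 TPM (log2 fold change 1.13 ± 0.14, interval 0.81 to 1.46, limma adjusted p = 0.00124), at the 98.4 percentile of all tested genes. Mlkl and Tnfsf10 were still called by limma with each library left out in turn (8 of 8 fits).

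**Figure D1:**
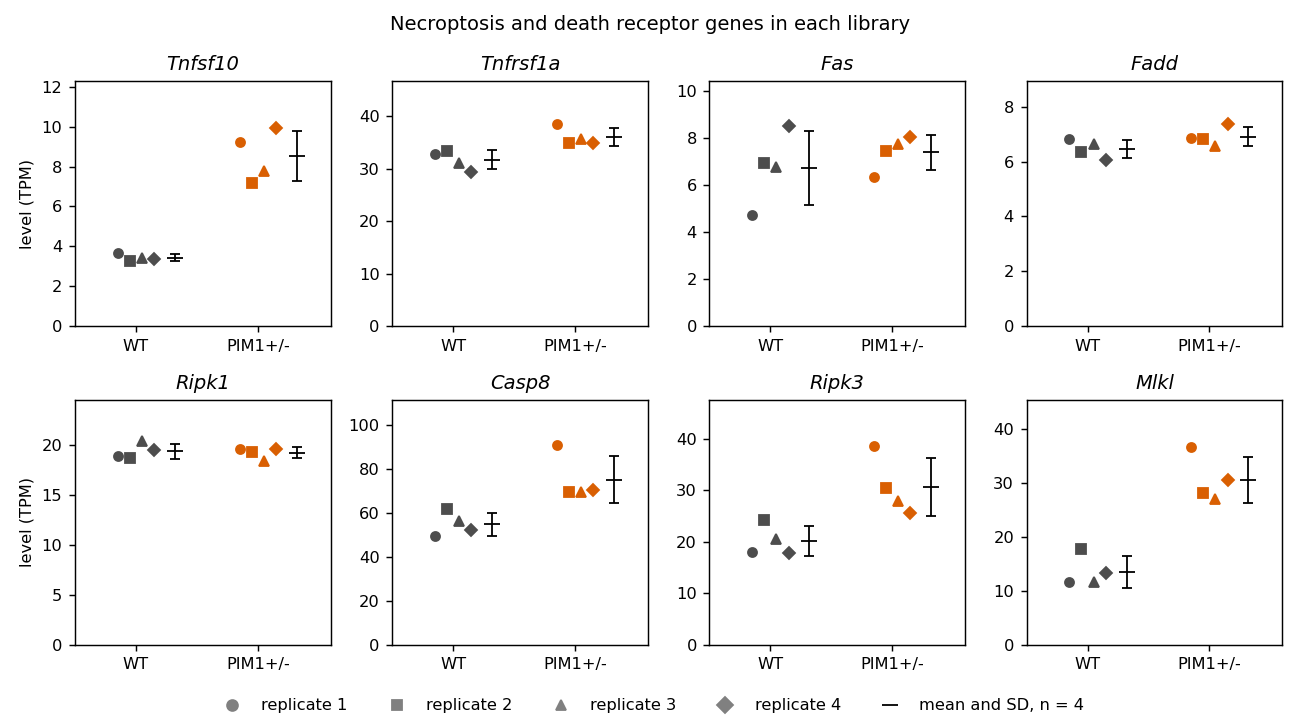
Level (TPM, vertical axes from 0) of the 8 members in each library, by genotype, with symbols for the replicate number and mean ± SD (n = 4) beside the points. Tnfsf10, Casp8, Ripk3 and Mlkl separate the genotypes, Tnfrsf1a does so by a small gap (33.48 against 34.87 TPM), and Fas, Fadd and Ripk1 overlap.

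The order of the levels differed between genotypes. In WT the mean TPM ran from Casp8 (54.9) through Tnfrsf1a (31.7), Ripk3 (20.2), Ripk1 (19.3), Mlkl (13.5), Fas (6.74) and Fadd (6.47) to Tnfsf10 (3.43), and the ranges of the neighbours Ripk3 and Ripk1, and of Fas and Fadd, overlapped. In PIM1+/- libraries Casp8 (75.2) and Tnfrsf1a (36.0) were again the highest, followed by Ripk3 (30.6) and Mlkl (30.6), with Ripk1 (19.2), Tnfsf10 (8.53) and Fas (7.395) below them and Fadd (6.91) last. There the ranges of the neighbours Tnfrsf1a with Ripk3, Ripk3 with Mlkl, Tnfsf10 with Fas and Fas with Fadd overlapped. So did those of Tnfrsf1a with Mlkl and of Tnfsf10 with Fadd, which were not neighbours. Mlkl thus lay below Ripk1 in all WT libraries and above it in all PIM1+/- libraries.

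Ratios within a library do not depend on how the library was scaled. In all, 6 pairs of partners were compared, chosen with these values in view, with exact two-sided permutation tests adjusted over the 6. The first gene of each pair was itself called higher, so a ratio to a level partner largely repeats that gene's change. Any pair without overlap gets an exact p = 0.0286, and the adjustment does not cover the choice of pairs. These p-values therefore add no separate support. The ratio of Mlkl to Ripk3, its kinase, was 0.560 to 0.738 in WT and 0.921 to 1.19 in PIM1+/- libraries (log2 difference 0.59, exact p = 0.0286, adjusted p = 0.0343). Ripk3 to Ripk1 went from 0.916 to 1.29 in WT to 1.31 to 1.97 (0.61, exact p = 0.0286, adjusted p = 0.0343). The gap between the genotypes in this ratio was the narrowest of the 5 pairs that did not overlap, and the exact p was 0.0571 when any of 7 libraries was left out, all except WT replicate 2. Casp8 to Cflar, the gene of the caspase-8-like inhibitor cFLIP, was 2.0 to 2.48 in WT and 2.89 to 3.52 in PIM1+/- libraries (0.48, exact p = 0.0286, adjusted p = 0.0343). Casp8 to Fadd overlapped between genotypes (7.24 to 9.72 against 9.53 to 13.3, exact p = 0.0571). Tnfsf10 to Tnfrsf10b, the TRAIL receptor gene, was 0.914 to 1.03 in WT and 1.83 to 2.82 in PIM1+/- libraries (1.19, exact p = 0.0286, adjusted p = 0.0343).

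**Figure D2:**
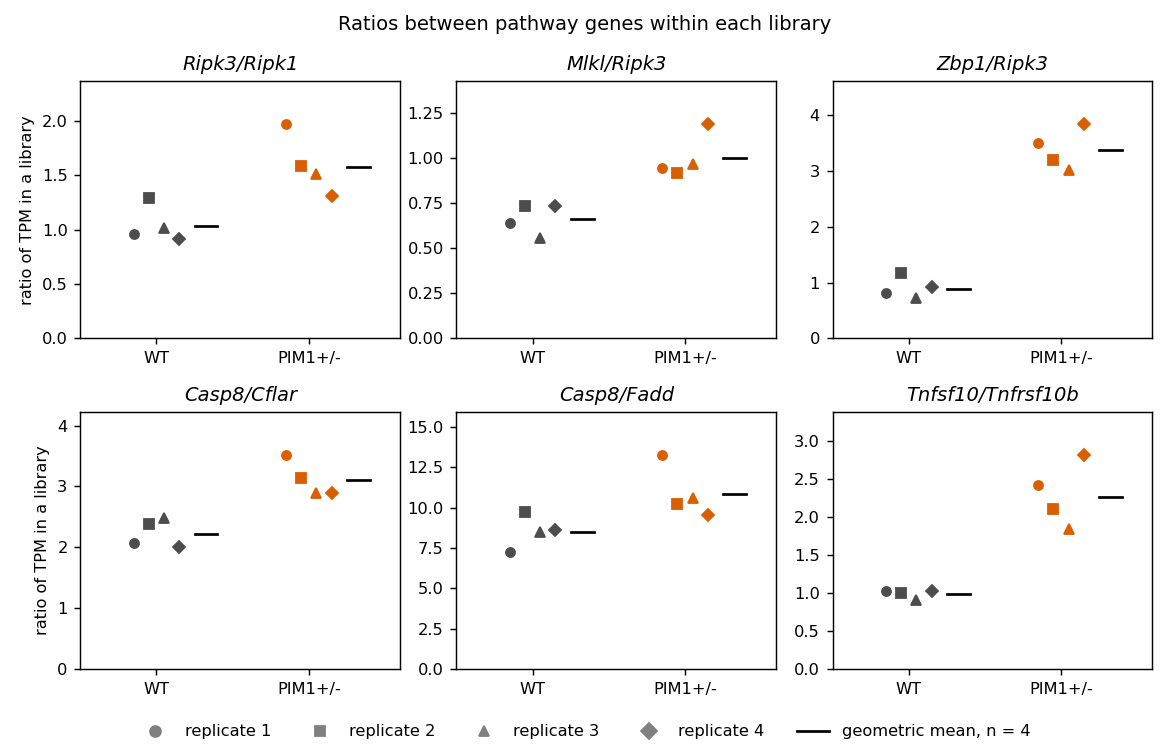
Ratio of TPM between partner genes within each library (vertical axes from 0), by genotype, with the geometric mean of 4 libraries as a bar. Casp8/Fadd is the pair whose genotypes overlap, and Zbp1/Ripk3 has the widest gap (at most 1.17 in WT, at least 3.01 in PIM1+/-).

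The sensors upstream of RIPK3 were read from a list of other RHIM proteins and the receptor above TRIF. Of 3 tested, 2 rose, against 8.93% of all tested genes that were higher. Zbp1, which binds left-handed double-stranded nucleic acid and recruits RIPK3, measured 14.76, 28.37, 14.95 and 16.31 TPM in WT and 134.94, 97.55, 83.93 and 98.59 TPM in PIM1+/- libraries. WT replicate 2 was the highest WT library, as for Mlkl and Ripk3, and all PIM1+/- libraries were far above it. The log2 fold change was 2.45 ± 0.21 (limma adjusted p = 0.000148), and Zbp1 to Ripk3 went from 0.726 to 1.17 in WT to 3.01 to 3.85 (log2 difference 1.92, exact p = 0.0286, adjusted p = 0.0343 over the 6 ratios). Tlr3, the endosomal receptor for double-stranded RNA, rose by 0.58 ± 0.12 (adjusted p = 0.0127), while Ticam1, its adaptor TRIF, was at 0.22 ± 0.07 (adjusted p = 0.0723).

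Among 17 other ligands, receptors and decoys, 10 were high enough to test, of which 3 rose and 0 fell (7 at an unadjusted p under 0.05, median 0.35). The shares over all tested genes were 8.93% higher and 8.54% lower. Tnfrsf1b, the second TNF receptor, which lacks a death domain, went from 8.22 ± 0.625 to 14.8 ± 3.48 TPM (0.76 ± 0.14, limma adjusted p = 0.00728). Tnf itself was low, at 1.38 to 1.81 TPM in WT and 2.57 to 5.85 TPM in PIM1+/- libraries (0.94 ± 0.21, adjusted p = 0.0153). Ltbr, the lymphotoxin beta receptor, was at 0.24 ± 0.07 (adjusted p = 0.0452), with overlapping libraries, and kept its call in 4 of 18 alternative settings. Tnfrsf10b did not pass (0.09 ± 0.10, adjusted p = 0.568). Fasl, the ligand of Fas, was too low to test, at 0 to 0.10 TPM in WT and 0.07 to 0.88 TPM in PIM1+/- libraries.

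In receptor complex I, the ubiquitin-built platform of survival signalling, 2 of 21 tested genes rose and 0 fell (6 at an unadjusted p under 0.05, median 0.01). This was a share near the 8.93% of all tested genes that were higher and below the 17.5% called in either direction. The 2 were Rnf31, which encodes HOIP, the catalytic subunit of the linear ubiquitin chain assembly complex (0.50 ± 0.11, limma adjusted p = 0.0152), and Rbck1, its HOIL-1 subunit (0.17 ± 0.05, adjusted p = 0.0473). Rbck1 was called in 2 of 18 alternative settings. The third subunit gene, Sharpin, was at 0.15 ± 0.12 (adjusted p = 0.412), and Tradd, the adaptor of the TNF receptor, at -0.05 ± 0.07 (adjusted p = 0.679). The sum of the 21 genes was 588 to 619 TPM in WT and 622 to 678 TPM in PIM1+/- libraries.

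Of 17 tested regulators of caspase-8 and RIPK1 signalling, 0 rose and 3 fell (5 at an unadjusted p under 0.05, median -0.03). Among all tested genes 8.93% were higher and 8.54% lower. The 3 of 17 were above that share for lower genes and close to the 17.5% called in either direction. The 3 were Usp21, a deubiquitinase that acts on RIPK1 (-0.42 ± 0.07, limma adjusted p = 0.00607), Tnip1, the ubiquitin-binding partner of A20 (-0.37 ± 0.09, adjusted p = 0.0214), and the ubiquitin ligase gene Rffl (-0.35 ± 0.10, adjusted p = 0.0395). Tnip1 was called in 12 and Rffl in 8 of 18 alternative settings. Tnfaip3, which encodes A20, was at -0.37 ± 0.12 (adjusted p = 0.0582). Cflar, next to Casp8 on chromosome 1, measured 23.88, 25.77, 22.67 and 26.1 TPM in WT and 25.86, 22.19, 24.09 and 24.38 TPM in PIM1+/- libraries. Its ranges overlapped, and the interval of its log2 fold change was -0.19 to 0.13 (adjusted p = 0.833).

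Downstream of caspase-8, 4 of 13 apoptosis execution genes rose and 1 fell (median 0.23). Cycs, cytochrome c, went from 81.3 ± 5.52 to 109 ± 7.83 TPM (0.42 ± 0.07, limma adjusted p = 0.00436). Casp6 (0.26 ± 0.07, adjusted p = 0.0372) kept its call in 3 of 18 alternative settings. Parp1, a substrate of caspases, fell by 0.28 on the log2 scale (adjusted p = 0.0128). Of 16 tested genes whose proteins act on RIPK3 or MLKL, 2 rose and 0 fell (5 at an unadjusted p under 0.05, median 0.04): Itpk1, an inositol phosphate kinase whose products MLKL needs (0.29 ± 0.06, adjusted p = 0.00904), and Chmp4b, a subunit of the membrane-repairing ESCRT-III complex (0.23 ± 0.05, adjusted p = 0.0129). Over the 6 pathway lists together 13 of 80 tested genes were higher and 4 lower, with a median of 0.06, against 8.93% higher and 8.54% lower among all tested genes.

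**Figure D3:**
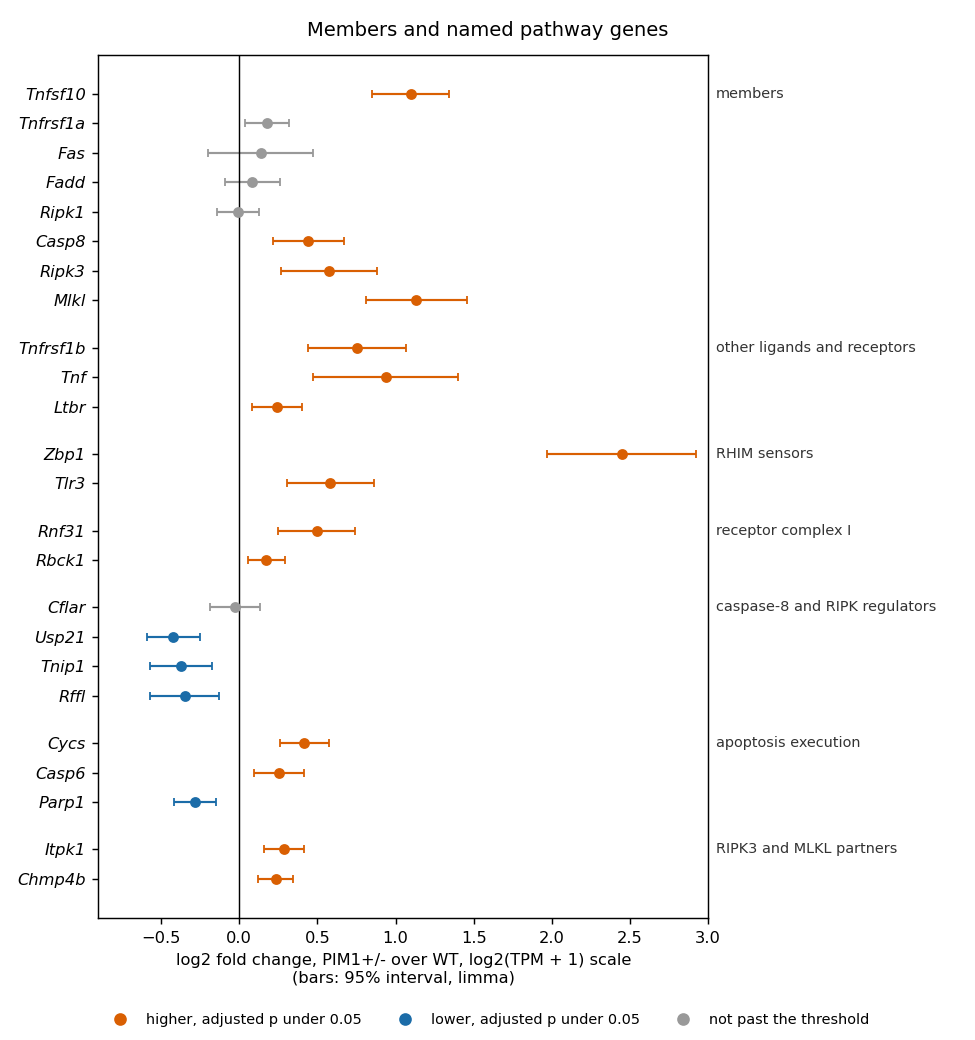
Log2 fold change (PIM1+/- over WT, log2(TPM + 1) scale, horizontal axis) with its 95% interval from limma for the members and the named pathway genes, grouped by role. Zbp1 is the largest at 2.45, Mlkl (1.13) and Tnfsf10 (1.10) follow, and the regulators Usp21, Tnip1 and Rffl lie below 0.

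**Figure D4:**
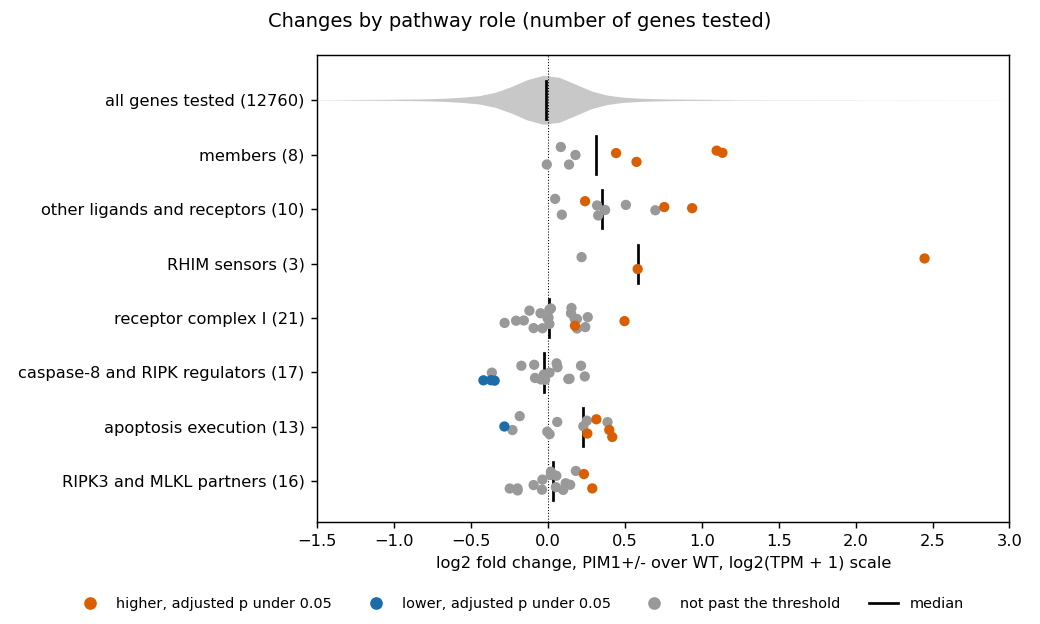
Log2 fold changes of the tested genes of each role (points, offset vertically at random), with the median of each as a black bar and the distribution of all 12760 tested genes above, on an axis that leaves out the few genes beyond it. Medians run from -0.03 (caspase-8 and RIPK regulators) to 0.58 (RHIM sensors), against -0.01 for all genes.

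The genes whose pattern over the 8 libraries lay nearest to each member that rose were found by the root mean square difference of log2(TPM + 1) from the WT mean. The search covered 9056 tested genes with a mean of at least 5 TPM, with predicted gene models (Gm numbers and Rik names) left out. For Mlkl they were Samd9l (difference 0.13) and Xdh (0.13), and for Tnfsf10 the class I gene H2-D1 (0.11) and AW112010 (0.11). For Casp8 they were Calr, an endoplasmic reticulum chaperone gene (0.06), and Stk40 (0.06), and for Ripk3 the small GTPase gene Rhof (0.07) and the tRNA synthetase gene Aars (0.10).

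Within a genotype, 3 of the 4 members that rose shared their highest library. WT replicate 2 was the highest WT library for Mlkl, Ripk3, Casp8 and Zbp1, and PIM1+/- replicate 1 the highest PIM1+/- library for the same 4 genes. Tnfsf10 was highest in WT replicate 1 and PIM1+/- replicate 4. Tnfrsf1a, which did not pass the test, was also highest in WT replicate 2 and PIM1+/- replicate 1. The lowest libraries differed. They were WT replicate 1 for Casp8 and Mlkl, WT replicate 4 for Ripk3, and PIM1+/- replicates 2, 4 and 3 for Casp8, Ripk3 and Mlkl. The mean log2(TPM + 1) of 25 interferon-stimulated genes outside the pathway was 2.93, 3.33, 2.78 and 3.21 in WT and 6.07, 5.43, 5.25 and 5.57 in PIM1+/- replicates 1 to 4, so it too was highest in WT replicate 2 and PIM1+/- replicate 1. All 25 of those genes rose (median 2.59), against 8.93% of all tested genes that were higher. They were led by Oas2 (4.02 ± 0.19) and Rtp4 (2.95 ± 0.15), each at a limma adjusted p = 8.36e-06. The part of the movement of these 25 genes in the members' changes was not tested.

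Markers of other cells and of gut position also moved with genotype. Beside the counts that follow, 8.93% of all tested genes were higher and 8.54% lower. Of 12 epithelial markers 7 were higher and 2 lower, with a sum of 14979 to 16027 TPM in WT and 16637 to 17612 TPM in PIM1+/- libraries. Of 18 T, NK and intraepithelial lymphocyte markers 12 were tested and 8 rose, and their summed level was 14.9 to 23.3 TPM in WT and 38.4 to 75.7 TPM in PIM1+/- libraries. Of 18 myeloid markers 6 were tested and 3 rose (summed level 3.69 to 8.10 against 19.2 to 23.4 TPM, S100a9 at 0 in all libraries). They were Mcpt1 (mean 0.5375 TPM in WT and 5.685 in PIM1+/- libraries), C1qa (0.5625 and 4.805) and Mcpt2 (0.285 and 1.6975). Cd68, Fcer1g and Tyrobp did not pass. Csf1r, Lyz2, C1qb and C1qc had means below 1 TPM in both genotypes. Of the 2 tested B and plasma cell and the 2 tested endothelial markers limma called 0 (0 at an unadjusted p under 0.05), with sums of 4.71 to 15.3 against 9.35 to 13.8 TPM and 3.73 to 5.82 against 3.34 to 4.20 TPM (Emcn at 0). No fibroblast marker (0.30 to 0.85 against 0.39 to 2.90 TPM in sum, Lum at 0) and no smooth muscle marker (0.90 to 28.9 against 0.30 to 0.48 TPM) passed the filter. The smooth muscle sum in WT was mostly Lmod1 (12.34, 26.99, 0.02 and 14.07 TPM), which was listed at 0 in the 4 PIM1+/- libraries. Posterior Hox genes, which mark position along the gut, were lower in 4 of 6 tested (median -0.75, sum 178 to 232 against 54.1 to 122 TPM, Hoxc10 at 0). The anterior and central Hox genes were mixed. Of 14 tested, 1 was higher (Hoxb7) and 3 were lower (Hoxa7, Hoxa5 and Hoxa3), with a median of 0.31.

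With the mean of 22 tested non-epithelial markers as a covariate, a score that correlated with genotype at r = 0.92 over the 8 libraries, limma called 0 members and 0 of 12760 genes (1106 at an unadjusted p under 0.05). The log2 fold changes were then 0.85 for Mlkl (adjusted p = 0.576), 0.80 for Tnfsf10 (0.45), 0.87 for Ripk3 (0.553) and 0.48 for Casp8 (0.668). With the mean of 6 posterior Hox genes as a covariate (r = -0.79 with genotype) Tnfsf10 was the only member called (1.04, adjusted p = 0.0364), with Mlkl at 0.87 (0.128), Ripk3 at 0.25 (0.626) and Casp8 at 0.21 (0.589). Genotype and these scores cannot be told apart with 8 libraries, and the part of these cells and of gut position in the members' changes was not tested.

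**Figure D5:**
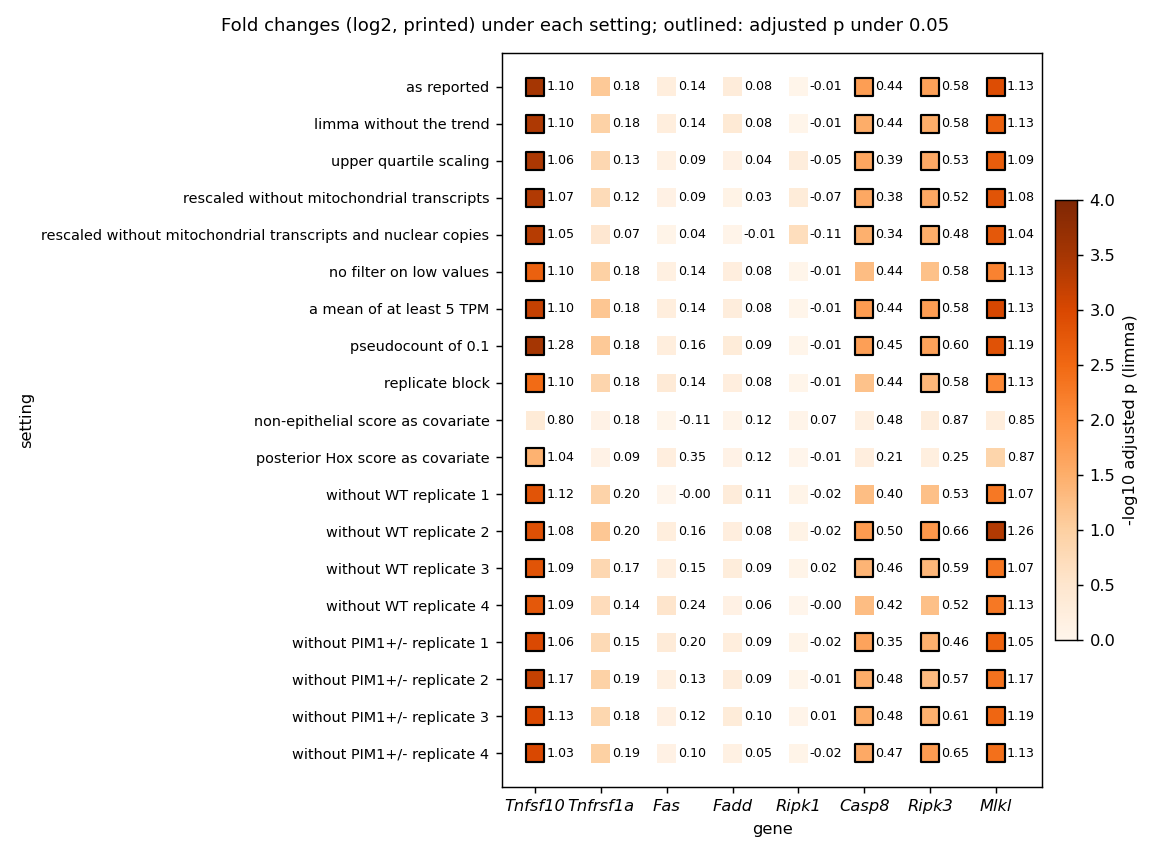
Log2 fold change (printed) and limma adjusted p (colour, -log10 scale, outlined where under 0.05) of the 8 members (columns) as reported and under 18 alternative settings (rows). Tnfsf10 loses its call only in the row with the non-epithelial covariate and Mlkl only in the rows with a covariate. Casp8 and Ripk3 lose theirs in both covariate rows and in others.

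Facts of the whole series bear on these values as follows. The Pim1 transcript itself was 5.72 to 8.83 TPM in WT and 5.64 to 7.97 TPM in PIM1+/- libraries (-0.19 ± 0.15, limma adjusted p = 0.411), so it did not separate the genotypes, which are named by their labels. The TPM of a library summed to between 990958 and 992187, which says nothing of its depth. Mitochondrial transcripts took 16.1% to 18.4% of the sum in WT and 12.5% to 13.7% in PIM1+/- libraries. Of the genes called, 51.1% were higher. This share was 36.7% with upper quartile scaling, 35.4% after rescaling without those transcripts and 24.8% without their nuclear copies as well, where the median log2 fold change was -0.11. The same 4 members were called there, at 1.05 (Tnfsf10), 1.04 (Mlkl), 0.48 (Ripk3) and 0.34 (Casp8). Ripk1, at -0.11 in that scaling, lay at the median, and Tnfrsf1a lay 0.18 above it.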

How the data were processed

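RNA of colon epithelial cells was measured in 8 libraries, 4 per genotype. The deposited values are TPM per gene, which the authors obtained with RSEM according to the design text. HISAT2, StringTie, edgeR and the build GRCm38.p6 are listed, without a role or version, per the submitters' processing notes. Annotation release, strand setting, filters and depth are not stated in the sources used here, so no counting error can be given. TPM scales each library to a fixed sum, and reads shared by overlapping genes are divided by estimation. Columns were matched to samples by genotype and replicate number in the labels (0 columns were left out).

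Genotype was the only term of a two-sided limma-trend fit (limma 3.58.1, R 4.3.3) to log2(TPM + 1). It covered the 12760 genes that reached 1 TPM in 4 or more of the 8 libraries, and p-values were adjusted by Benjamini-Hochberg and called under 0.05. Exact permutation tests used all 70 splits. The members and the pathway and marker lists were chosen with earlier results of these data known, so no list was tested and none adjusted alone. Named are all members, Zbp1 and Cflar, up to 3 called genes per list and direction with the smallest p (2 for interferon-stimulated genes), and the 2 nearest patterns. Some results that the rule would name are not reported here. Sharpin, Tradd, Tnfaip3, Tnfrsf10b, Fasl, Ticam1, Lmod1 and the 6 ratios were chosen after their values were seen. So were the named myeloid markers and the named anterior and central Hox genes. Alternatives were limma without the trend, 3 other scalings, other filters, the smaller pseudocount 0.1, a replicate block, 2 covariates and leaving out each library. The scaling without nuclear copies (10 pseudogenes, BLAST+ at 90% identity over 80% of their length) and the ratios left out by library were added after the data were seen. Positions and exons are from GENCODE M21 on GRCm38 (55227 of 55487 IDs matched) and promoters from RefSeq, where Zbp1 was not matched. The fit was also run on simulated data in which genes varied independently, which can check the code but not the calls made here.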

Additional observations from a re-analysis of the deposited data

Results flagged for a closer look

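In 72 groups of 4 libraries, made up of the members, the other named genes, the ratios and the 3 scores, 5 held a library far from the other 3. Chance alone gives about 1 in 20 such groups. For Casp8, PIM1+/- replicate 1 at 91.03 TPM stood above the other PIM1+/- libraries. For Zbp1, WT replicate 2 at 28.37 TPM stood above the other WT libraries. Rnf31 stood apart in replicate 4 of both genotypes, at 16.82 TPM in WT and 21.42 TPM in PIM1+/-. For Chmp4b, PIM1+/- replicate 1 at 235.36 TPM stood above the other PIM1+/- libraries.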

How the results depend on the processing

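Outside the covariate fits, Mlkl (1.04 to 1.26) and Tnfsf10 (1.03 to 1.28) were called in 16 of 16 alternative limma settings, Ripk3 (0.46 to 0.66) in 13 and Casp8 (0.34 to 0.50) in 12.
Counts: the number of genes called went from 2229 to 1439 with no filter, 1449 with the replicate block, 0 when the non-epithelial score was a covariate (1106 at an unadjusted p under 0.05 in limma) and 159 when the posterior Hox score was, and to 1374 to 2050 with each library left out (1374 without WT replicate 1, 1416 without WT replicate 4). The number of members called went from 4 to 2, 3, 0 and 1 in these 4 settings and to 2 to 4 with each library left out, 2 without WT replicate 1 and 2 without WT replicate 4. Of genes on the 6 pathway lists 17 were called, 10 with no filter, 11 with the replicate block, 0 and 1 in the covariate fits, and 11 to 17 with each library left out.
Members: with the non-epithelial covariate the values were 0.80 for Tnfsf10 (adjusted p = 0.45), 0.48 for Casp8 (0.668), 0.87 for Ripk3 (0.553) and 0.85 for Mlkl (0.576), and Fas (-0.11) and Ripk1 (0.073) changed sign, as did Ltbr (-0.019) and Casp6 (-0.044). With the posterior Hox covariate they were 0.21 for Casp8 (0.589), 0.25 for Ripk3 (0.626) and 0.87 for Mlkl (0.128). With no filter Casp8 stayed at 0.44 (0.0519) and Ripk3 at 0.58 (0.0591), as more genes were tested. In the replicate block fit Casp8 was at 0.44 (0.0605). The exact permutation test, not adjusted over genes, put Tnfrsf1a (log2 ratio of means 0.18) at p = 0.0286. Fadd turned to -0.012 in the scaling without mitochondrial transcripts and nuclear copies. With each library left out Casp8 ran from 0.35 to 0.50, Ripk3 from 0.46 to 0.66, Fas from -0.0017 to 0.24, Ripk1 from -0.023 to 0.016 and Cflar from -0.064 to 0.011, and the log2 ratio of Ripk3 to Ripk1 from 0.50 to 0.71 (exact p from 0.0286 to 0.0571). The cause of each change was not tested unless stated.
Same-numbered libraries did not deviate together (r from -0.14 to 0.03 across genes). The labels do not say whether the numbers pair the samples, and these correlations cannot settle it. Depth is unknown, and no limit from depth can be given.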
